A study of Aspergillus nidulans with 12 samples.

Results

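Poly(A) RNA-seq counts were compared between Aspergillus nidulans cultures labelled rimO overexpression and cultures labelled rimO deletion, both taken 8 h after the medium had run out of glucose. The comparison was set by the labels and holds 4 of the 12 libraries of the series, 2 duplicate cultures of each strain. Genotype OE_rimO (strain label Oegr_3) was harvested at 48 h and genotype delta_rimO (strain label drim2.4) at 54 h, since the deletion strain, per the labels, takes up glucose at a lower rate. All cultures grew at 37 °C in shaken flasks of minimal medium whose carbon source was glucose (50 mM) and nitrogen source nitrate (10 mM). Wild type A1153 at 48 h, with 2 cultures and the same distance from glucose depletion, gives the levels set beside the comparison, and 2 cultures of each mutant strain at 17 h give the difference during growth. Strain and harvest hour cannot be told apart, since the strains differed by 6 h in age. The labels do not name the overexpression promoter or the selection markers, nor how many clones were taken, and each genotype carries a single strain label.

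RimO is named in the series title as a homolog of Rim15p. In baker's yeast Rim15 is a protein kinase held in check while glucose and nitrogen are plentiful, and it turns on stress and quiescence programmes when nutrients run out. In A. nidulans, glucose exhaustion ends rapid growth. Alternative carbon and nitrogen sources are then mobilised, part of the mycelium autolyses, and genes for secondary metabolites, which lie side by side in clusters along the chromosomes, are switched on. Light, oxygen and nutrient signals also decide between vegetative growth, asexual spores (conidia) and sexual fruiting bodies.

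The 4 libraries held 9269951 to 17891416 counts, with the shallowest being replicate 2 of the overexpression-labelled strain. Log2 CPM (counts scaled to a common library total, with edgeR's TMM factors) correlated across genes between duplicates at r = 0.992 for overexpression and 0.994 for deletion, and duplicates differed by more than counting noise (chi-square per degree of freedom of 9.31 and 17.8). Counts were detected for 9824 and 9920 genes in the overexpression-labelled libraries and for 10189 and 10191 genes in the deletion-labelled libraries. Differences below are log2 changes of overexpression over deletion from edgeR with a standard error. A gene was called where p, adjusted by Benjamini-Hochberg over all tested genes, was below 0.05. These p-values measure the spread between duplicate cultures. In bulk RNA, fewer cells expressing a gene and less of its RNA per cell cannot be told apart.

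The identifier AN7572 was read as rimO on general knowledge, since neither the files nor the reference table give that name. Its level was 322 and 357 CPM in the overexpression-labelled cultures and 51.6 and 48.4 CPM in the deletion-labelled cultures, with 447 and 437 CPM in wild type at 48 h. The groups did not overlap and the difference was 2.76 ± 0.10 on the log2 scale (adjusted p = 5.9e-12). Reads of AN7572 therefore remained in the deletion-labelled libraries, and the overexpression-labelled libraries did not exceed wild type at this harvest, so both labels stand in the text as labels. Where in the gene these reads fell is not recorded by gene counts. At 17 h the gene stood at 588 and 504 CPM and 60.5 and 67.4 CPM in the same order of strains. Wild type then held 99.8 and 109 CPM, so during growth the overexpression-labelled cultures were above wild type by level and the deletion-labelled cultures below it.

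The late transcriptomes of the strains differed at most genes. Of 9670 genes tested, 3951 (40.9%) were higher in overexpression and 3929 (40.6%) were lower, and for 8763 genes (90.6%) the duplicates of one strain did not overlap those of the other. A call alone thus sets few genes apart, and size is the more telling quantity. By at least 2-fold, 1811 genes (18.7%) were higher and 2383 (24.6%) lower. A change of at least 4 on the log2 scale was called for 290 higher and 582 lower genes, and of at least 8 for 55 higher and 107 lower genes. These sizes are fitted values. For a gene without counts in 1 strain they can exceed the change against a floor of 3 counts over the group. AN1031 was fitted at -9.07 but stood at -5.58 against that floor, and AN9247 at 8.82 and 5.45. The median of the signed log2 changes was 0.01, a value that TMM scaling draws toward 0 and that is not a size of difference. The near-equal split rests on the scaling too, with 4241 genes higher and 3683 lower under upper-quartile scaling. Counts of list members are to be read against 40.9% and 40.6%, and of 335 list entries 325 were found in the table and 302 passed the filter on low counts.

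Wild type at 48 h lay mostly on the side of the overexpression-labelled cultures. Both were harvested at 48 h and deletion at 54 h, so genotype and culture age cannot be told apart in this pattern. Of the 1811 genes at least 2-fold higher, wild type was nearer to overexpression for 1053 (58.1%) and beyond it for 506 (27.9%), and it was nearer to or beyond deletion for 212 and 40. Of the 2383 genes at least 2-fold lower, it was nearer to overexpression for 1168 (49.0%) and beyond it for 983 (41.3%), against 152 and 80 on the deletion side. A wild type mean past that of a strain by any amount counts as beyond, as for AN7571 at 0.0074 on the log2 scale. Among the genes of both directions 34 had a wild type mean outside both strains by at least 2 on the log2 scale, 23 of them above both. AN4277, among these, stood at 31.8 and 35.5 CPM in overexpression, 2 and 3.5 CPM in deletion and 207 and 181 CPM in wild type. For AN6431 and AN2792 the wild type values of 16.4 and 19.4 CPM and 10.1 and 8.4 CPM also stood above both strains, whose means were 4.39 and 0.682 CPM for AN6431 and 0.0929 and 1.44 CPM for AN2792.

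**Figure D1:**
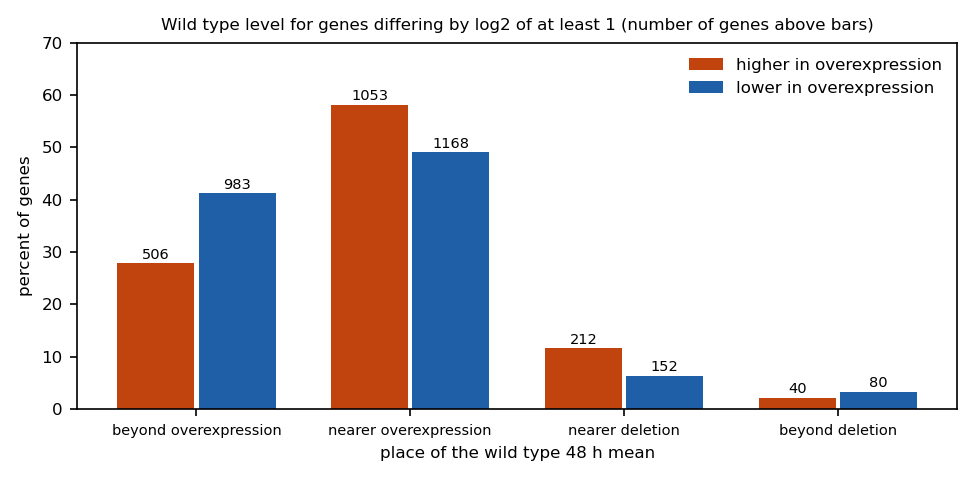
Share of genes (percent, bars start at 0) by where the wild type mean of log2(CPM + 0.5) at 48 h lay relative to the means of the mutant strains, for genes at least 2-fold higher (red) or lower (blue) in overexpression. The tallest bars are those nearer overexpression, with 1053 and 1168 genes, and the bars beyond deletion hold 40 and 80 genes. Wild type shared the 48 h harvest with overexpression, while deletion was harvested at 54 h.

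Secondary metabolite clusters differed between the strains in both directions. The sterigmatocystin cluster makes a toxic precursor of the aflatoxin family, and all 21 measured genes of the 22 listed were higher in overexpression, with a median log2 change of 6.87. Together they took 10133 and 11192 CPM in the overexpression cultures, 139 and 149 CPM in the deletion cultures and 19876 and 14268 CPM in wild type. The regulator gene of the cluster, aflR (AN7820), stood at 243 and 270.5 CPM against 2.39 and 2.39 CPM, a change of 6.74 ± 0.14 (adjusted p = 2.95e-14). The polyketide synthase gene stcA (AN7825) stood at 1782 and 2058 CPM against 1.67 and 2.82 CPM, a change of 9.75 ± 0.27 (adjusted p = 3.05e-13). Neither gene overlapped between strains, which held for 90.6% of all tested genes, and both were under 3 CPM in deletion. Wild type held 214 and 179 CPM of aflR and 4004 and 2753 CPM of stcA, so aflR was lower and stcA higher there than in overexpression by level. For AN7809, 3 counts over the deletion libraries met 22950 in overexpression, a depth-scaled ratio of 8206 (95% counting interval 2807 to 39792). AN7810 had 2 counts in deletion and a ratio of 6923 (95% counting interval 1916 to 57169), AN7812 differed by 12.47 ± 0.34, and the smallest change in the cluster was that of AN7823 (0.63 ± 0.14).

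Several further clusters were higher. All 5 emericellamide genes (a cyclic lipopeptide) were called, with a median of 4.82. The polyketide synthase gene easB (AN2547) stood at 95.1 and 90.9 CPM against 3.39 and 2.95 CPM (change 4.87 ± 0.13, adjusted p = 2.31e-13), with 109 and 116 CPM in wild type. The acyltransferase gene easC (AN2548) and the acyl-CoA ligase gene easD (AN2549) differed by 5.23 and 4.82. All 3 measured terrequinone genes of 5 listed, for a prenylated bisindole, were higher (median 7.38). The prenyltransferase gene tdiB (AN8514) stood at 37.1 and 42.8 CPM against 0.222 and 0 CPM (change 8.32 ± 0.34, adjusted p = 1.65e-11), the synthetase gene tdiA (AN8513) differed by 7.38 and tdiD (AN8516) by 6.66. Each of these terrequinone genes was at or near 0 CPM in the deletion cultures.

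The austinol meroterpenoid genes lie at separate loci. Of 20 listed genes 17 were in the count table and 9 passed the filter, all 9 were higher, and all 9 belong to the locus from AN9246 to AN9259. The other 3 entries of that locus and the 5 at the ausA locus (AN8379 to AN8384) stayed below the filter. Since a gene can pass through its high group alone, that count is a description. AN9253 stood at 60.4 and 77.3 CPM against 0.167 and 0 CPM, with 3 counts over the deletion libraries and a depth-scaled ratio of 758 (95% counting interval 259 to 3678). AN9246 had 12.6 and 16.5 CPM and no count in deletion, at least 166-fold higher against a floor of 3 counts over the group, and AN9247 at least 43.6-fold. Wild type held 1.62 and 2.18 CPM of AN9246 and 7.54 and 11.9 CPM of AN9253, between the strains. The list median was 7.41, or 5.47 with genes lacking counts set at their bound, 4.30 with no filter on low counts and 8.43 with a filter of 5 CPM.

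Of 10 tested monodictyphenone genes, for an anthraquinone-derived xanthone, 8 were higher and 2 not called (median 3.12), at low levels. A further 2 stayed below the filter, and this count too is a description. The polyketide synthase gene mdpG (AN0150, tpcC in the reference table) stood at 9.86 and 10 CPM against 2.33 and 3.31 CPM (change 1.82 ± 0.20, adjusted p = 9.08e-07). The ketoreductase gene mdpC (AN0146) stood at 5.26 and 6.22 CPM against 0 and 0.123 CPM, a depth-scaled ratio of 96 (95% counting interval 26.2 to 799). With 1 count in deletion, mdpK (AN10044) gave a ratio of 37.5 (95% counting interval 6.31 to 1525), and mdpH (AN10022) had none there and was at least 14.8-fold higher.

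All 3 penicillin genes were higher (median 1.96). Isopenicillin N synthase, ipnA (AN2622), stood at 75 and 77.7 CPM in overexpression and 5.77 and 8.22 CPM in deletion, a change of 3.45 ± 0.15 (adjusted p = 3.54e-11). Wild type held 6.15 and 6.22 CPM of ipnA, at the level of the deletion cultures. For acvA (AN2621), which encodes the tripeptide synthetase, the change was 1.96 ± 0.29, and for the acyltransferase gene aatA (AN2623) 1.88 ± 0.18. Both were lower in wild type than in either strain by mean level, at 0.341 CPM of acvA against 0.929 CPM in deletion and 1.74 CPM of aatA against 4.11 CPM.

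The dba polyketide cluster went the other way and was close to all or none. All 11 genes were lower in overexpression, with a median of -11.76, or -11.56 with a gene lacking counts at its bound. Summed over the cluster, the overexpression cultures held 4.74 and 5.41 CPM, the deletion cultures 9690.1 and 9497 CPM and wild type 43.3 and 22.4 CPM. AN7895 stood at 0.383 and 0.541 CPM against 4759.8 and 4231 CPM (change -13.30 ± 0.43, adjusted p = 1.66e-12). The polyketide synthase gene AN7903 stood at 0 and 0.18 CPM against 218 and 275 CPM, a depth-scaled ratio of deletion over overexpression of 3913 (95% counting interval 1083 to 32319). AN7899 had 1 count in overexpression against 10507, a ratio of 9796 (95% counting interval 1758 to 386944), and AN7900 had none and was at least 1299-fold lower. No dba gene overlapped between the strains, which was also true of 90.6% of all tested genes.

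Clusters with lower transcripts in overexpression included some of low level. In the asperfuranone list 8 genes were in the count table, 3 stayed below the filter, and the 5 tested were all lower (median -2.93). Since a gene can pass through its high group alone, the counts of lower genes in this and the next paragraph are descriptions. The activator gene afoA (AN1029) stood at 0.718 and 0.631 CPM against 1.89 and 2.45 CPM (change -1.65 ± 0.39). With 4.16 and 4.79 CPM in deletion and no count in overexpression, afoB (AN1031) was at least 47.7-fold lower, and afoD (AN1033) differed by -3.29 ± 0.35. The polyketide synthase gene afoE (AN1034) had 1 count against 10, a ratio of 9.32 (95% counting interval 1.33 to 405) that was called at an adjusted p of 0.0297. That call was lost without deletion replicate 2 (adjusted p = 0.21) and without either overexpression replicate (adjusted p = 0.0683 and 0.0933).

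Of 5 tested aspyridone genes 4 were lower and 1 higher (median -3.45). The hybrid synthase gene apdA (AN8412) stood at 0.287 and 0.271 CPM against 15.9 and 14.5 CPM (change -5.71 ± 0.43, adjusted p = 1.59e-08), while AN8414 and AN8413 differed by -5.26 and -3.45. The one higher member, AN8415, differed by 0.21 ± 0.09, and its call was lost without deletion replicate 2 and without either overexpression replicate. The median of the list was -5.73 without overexpression replicate 2 and -5.29 with a filter of 5 CPM. Of 6 tested pimaradiene genes, for a diterpene, 5 were lower, and 2 more stayed below the filter. AN1596 stood at 0.67 and 0.812 CPM against 11.4 and 13.9 CPM (change -4.12 ± 0.23). AN1597 differed by -2.76 ± 0.26, and AN1593 had no count in overexpression and was at least 27-fold lower. Of 4 tested fellutamide genes 3 were lower (AN3493 -4.11 ± 0.34, AN3492 -2.51 ± 0.67, AN3496 -2.38 ± 0.36), and 3 more stayed below the filter. The call of AN3492 was lost with DESeq2 (adjusted p = 0.0958) and without overexpression replicate 1 (adjusted p = 0.0962).

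The remaining clusters were split. In the orsellinic acid cluster 1 gene was higher, 3 were lower and 1 was not called, and without overexpression replicate 1 the higher count was 2. The polyketide synthase gene orsA (AN7909) stood at 14.4 and 24.4 CPM against 7.27 and 6.63 CPM (change 1.44 ± 0.21), and the cluster gene orsE (AN7914) at 16 and 34.6 CPM against 325 and 239.8 CPM (change -3.54 ± 0.24). Genes orsD (AN7913) and orsC (AN7912) were lower too, with changes of -1.65 and -1.51. Within the same cluster the first gene was therefore higher and the last lower, and the overexpression duplicates differed more than the deletion duplicates for orsA and orsE in ratio. In the cichorine list 2 genes were higher, among them the polyketide synthase gene AN6448 at 2.34 and 2.62 CPM against 0.0555 and 0.307 CPM (change 3.75 ± 0.62). Of the 3 lower, AN6447 and AN6445 had 1 and 3 counts in overexpression against 40 and 34, ratios of 37.3 (95% counting interval 6.32 to 1509) and 10.6 (95% counting interval 3.32 to 53.8).

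**Figure D2:**
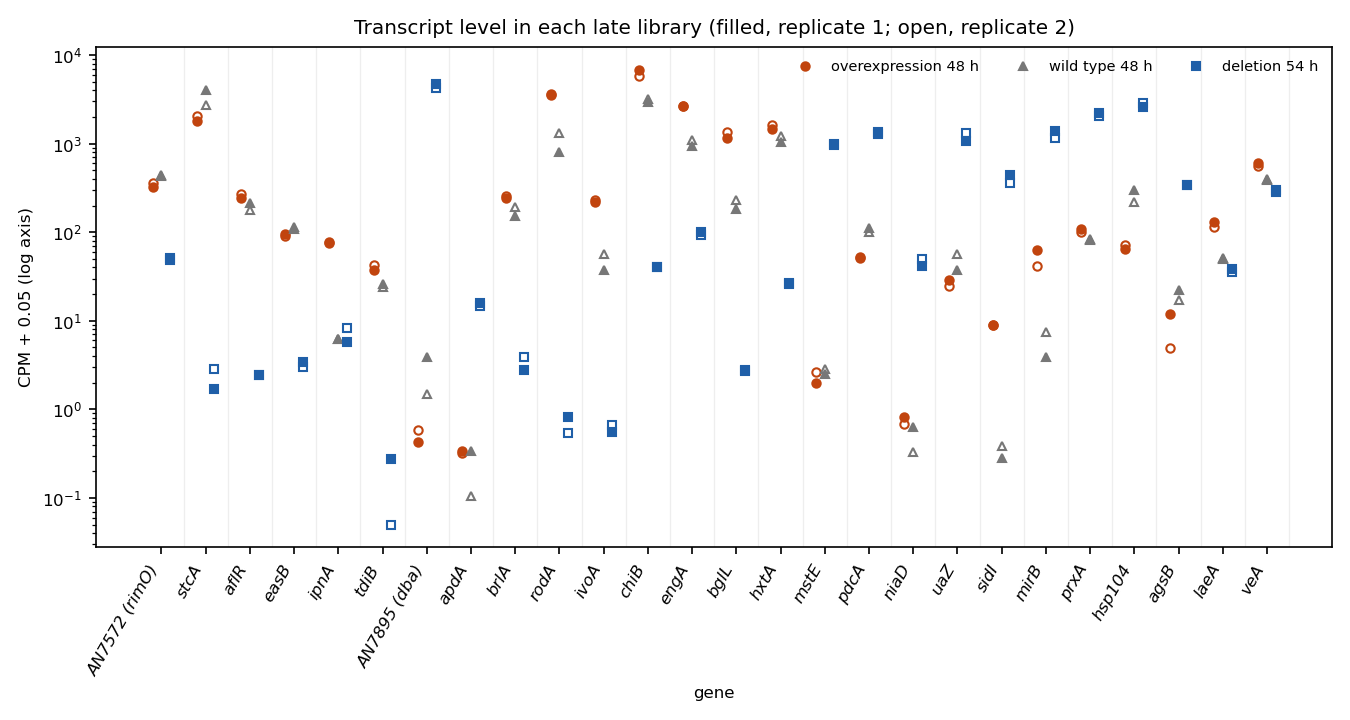
CPM plus 0.05 (log axis) of selected genes in each late library, for overexpression at 48 h (circles), wild type at 48 h (triangles) and deletion at 54 h (squares), with replicate 1 filled and replicate 2 open. For many genes shown the wild type points lie near the overexpression points, as for stcA and mstE. For ipnA they lie with the deletion points, at 6.18 CPM on average. They lie apart from both strains for others, between them for laeA, veA and bglL and below both for sidI and mirB.

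**Figure D3:**
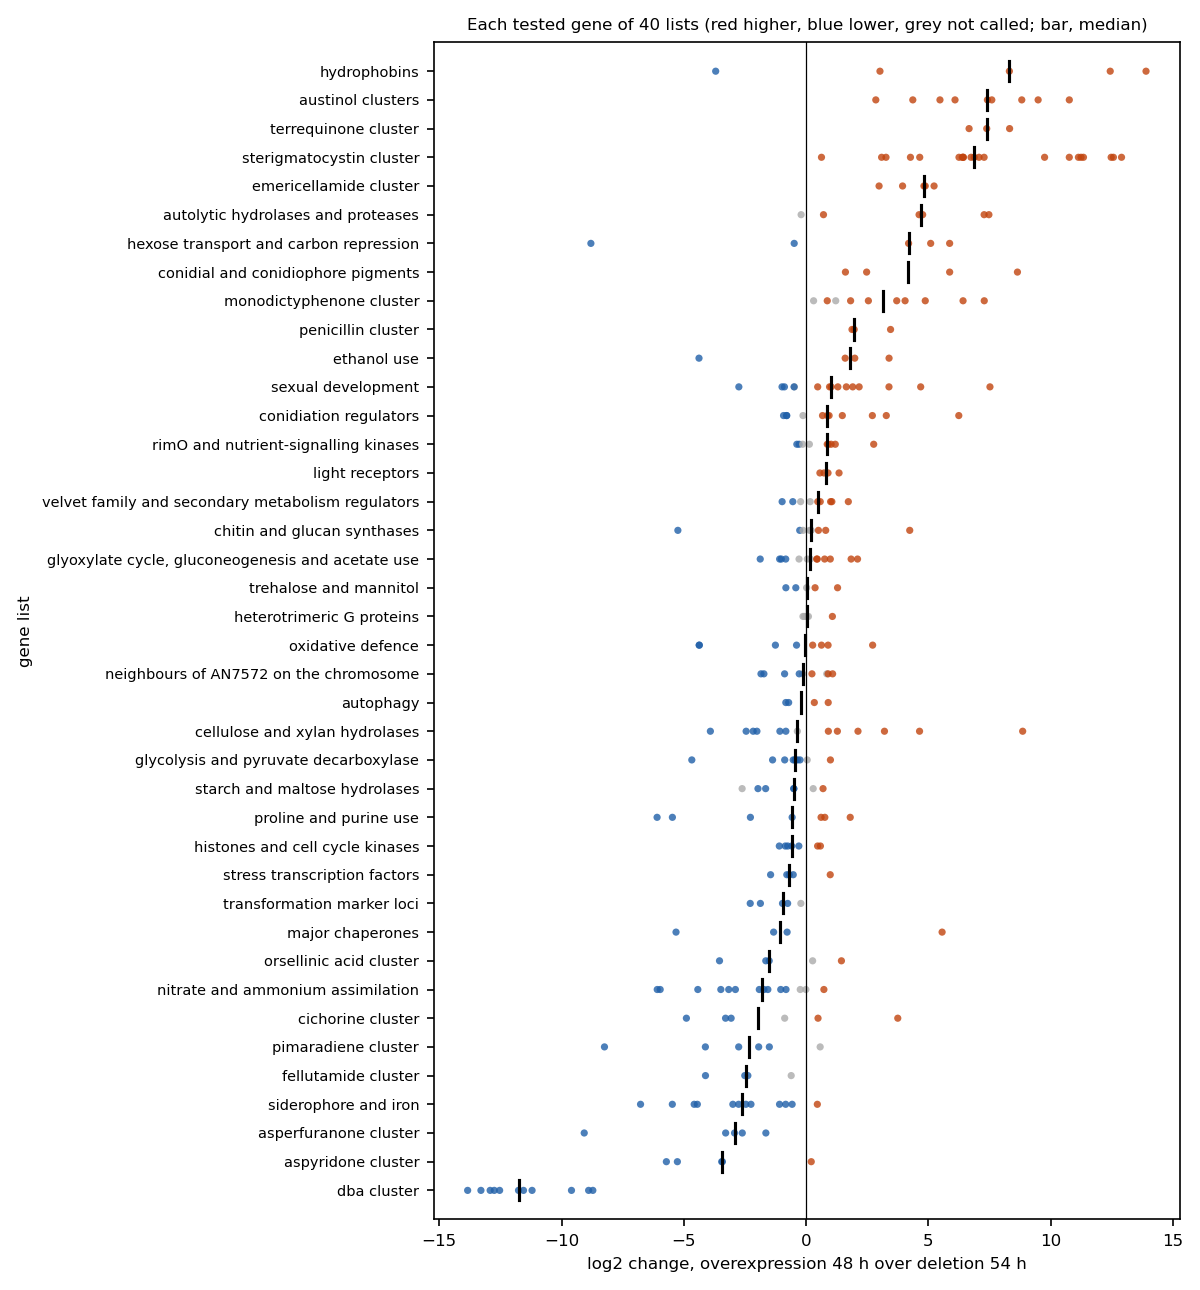
Log2 change of overexpression at 48 h over deletion at 54 h for each tested gene of the 40 lists, ordered by median (black bar), with called genes in red (higher) or blue (lower) and the rest in grey. Hydrophobins, with a median of 8.31, stand at the top and the dba cluster, with a median of -11.76, at the bottom.

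Regulators of secondary metabolism moved less than the clusters. Of 9 genes 5 were higher, 2 lower and 2 not called (median 0.48). The methyltransferase gene laeA (AN0807), a global activator of clusters, stood at 129.6 and 114 CPM against 38.7 and 35.1 CPM (change 1.73 ± 0.09, adjusted p = 1.77e-10), with 50.2 and 51.3 CPM in wild type. The velvet genes veA (AN1052) and velC (AN2059) were higher by 1.00 ± 0.08 and 1.05 ± 0.10, and velB (AN0363), which encodes a partner of VeA, was lower (-0.98 ± 0.09). For laeA and veA the overexpression cultures were above wild type and the deletion cultures below it.

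Conidiation genes showed their largest changes in the central pathway, in which brlA starts asexual spore formation and abaA and wetA follow it. Of 11 regulators 7 were higher, 3 lower and 1 not called (median 0.87). The level of brlA (AN0973) was 243 and 254 CPM against 2.72 and 3.87 CPM (change 6.24 ± 0.16, adjusted p = 1.77e-13), with 152 and 191 CPM in wild type. For wetA (AN1937) and abaA (AN0422) the changes were 3.28 ± 0.28 and 2.71 ± 0.22, at 6.08 and 7.85 CPM against 0.611 and 0.798 CPM for wetA. Of the upstream flb genes, flbB, flbD and flbE were lower by less than 2-fold (-0.80, -0.92 and -0.79), flbC was higher by 0.94 and flbA was not called.

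Most spore coat and pigment genes were higher too. Of 5 tested hydrophobins, small surface proteins that make spores water-repellent, 4 were higher. The rodlet gene rodA (AN8803) stood at 3595 and 3581 CPM against 0.777 and 0.491 CPM (change 12.43 ± 0.31, adjusted p = 1.46e-13), and wild type held 809 and 1332 CPM. For dewC (AN6401), 3 counts over the deletion libraries met 47175, a depth-scaled ratio of 16867 (95% counting interval 5771 to 81792). The remaining higher genes were dewB (AN1837, 8.31 ± 0.27) and dewA (3.02 ± 0.29), while dewE (AN7539) was lower, at 19.9 and 8.93 CPM against 139.8 and 251 CPM. All 4 measured pigment genes of 5 listed were higher (median 4.17). The conidiophore pigment genes ivoA (AN10576) and ivoB (AN0231) differed by 8.64 ± 0.24 and 5.87 ± 0.16, with ivoA at 218 and 231 CPM against 0.5 and 0.614 CPM, and the laccase gene yA (AN6635) of the green spore pigment by 2.47 ± 0.13.

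Of 15 sexual development genes 10 were higher, 4 lower and 1 not called (median 1.02). The largest changes were in genes expressed in Hülle cells, which nurse the fruiting body. The mutanase gene mutA (AN7349) stood at 248 and 257 CPM against 1.39 and 1.35 CPM (change 7.52 ± 0.14, adjusted p = 1.76e-14). The catalase-peroxidase gene cpeA (AN7388) stood at 4725 and 4957 CPM against 174 and 203 CPM (change 4.68 ± 0.16). Among oxylipin synthase genes, ppoC (AN5028) was higher by 3.39 ± 0.12 and ppoB by 2.17 ± 0.20, and ppoA was lower (-2.75 ± 0.10). The regulators nsdD and nsdC, which promote the sexual cycle, were lower (-0.89 and -0.49), and nosA and steA higher by 1.02 and 0.47.

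Autolysis genes, whose products digest the walls and proteins of starved mycelium, were higher in 5 of 6 cases (median 4.69), and the list took 12928 and 12068 CPM in overexpression, 801 and 1007 CPM in deletion and 5649 and 6296 CPM in wild type. The chitinase gene chiB (AN4871) stood at 6831 and 5797 CPM against 40.8 and 40.6 CPM (change 7.28 ± 0.13, adjusted p = 1.06e-14). The glucanase gene engA (AN0472) stood at 2633 and 2631 CPM against 101 and 93.1 CPM (change 4.76 ± 0.14). The metalloprotease gene pepJ (AN7962, mep20 in the reference table) stood at 1222 and 1013 CPM against 5.38 and 7.24 CPM (change 7.47 ± 0.28). Wild type held 13.2 and 27.5 CPM of pepJ, far nearer to deletion, and the alkaline protease gene prtA was not called (-0.20 ± 0.16, adjusted p = 0.236). Sporulation and autolysis genes thus moved with strain in the same libraries as the metabolite clusters, and their part in those differences was not tested. Of 4 measured autophagy genes, atg13 (AN2076) and atg4 were higher (0.90 and 0.34) and atg1 (AN1632) and atg8 (AN5131) lower (-0.83 and -0.71).

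Iron uptake genes were lower almost throughout. Siderophores are small iron chelators made when iron is scarce, and of 12 siderophore and iron genes 11 were lower and 1 higher (median -2.61). The list took 610.3 and 566 CPM in overexpression, 3999 and 3418 CPM in deletion and 358 and 367 CPM in wild type. The siderophore synthesis gene sidI (AN0609) stood at 9 and 9.02 CPM against 439.8 and 359 CPM (change -5.47 ± 0.14, adjusted p = 1.99e-13). The transporter genes mirB (AN8540) and mirA (AN7800) differed by -4.58 ± 0.23 and -6.77 ± 0.26, with mirB at 63.1 and 41.8 CPM against 1378 and 1152.9 CPM. Wild type held 0.232 and 0.336 CPM of sidI and 3.83 and 7.51 CPM of mirB, below both strains. The entry step sidA and the activator hapX were lower (-4.45 and -2.26), and so was the repressor sreA (-0.57). The one higher gene was sidC, for an intracellular siderophore, at 0.46 ± 0.19, and it was not called without deletion replicate 1 or without either overexpression replicate.

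Nitrogen assimilation genes were also lower. Of 14 genes for nitrate and ammonium use 11 were lower, 1 higher and 2 not called (median -1.82). The nitrate reductase gene niaD (AN1006) stood at 0.766 and 0.631 CPM against 41.6 and 49.2 CPM (change -5.97 ± 0.18, adjusted p = 7.73e-13). The nitrate transporter gene nrtB (AN0399) stood at 10.4 and 9.47 CPM against 216 and 215 CPM (change -4.43 ± 0.15). The ammonium permease gene mepA (AN1181) stood at 43.9 and 21.3 CPM against 2292 and 2242 CPM (change -6.09 ± 0.31). Duplicates of the overexpression strain differed for ammonium genes, with the permease gene meaA at 145 and 33.8 CPM, glutamine synthetase glnA at 1770.4 and 966 CPM and glutamate dehydrogenase gdhA at 307 and 154 CPM. Deletion cultures were above both values for each, at 845 and 783, 5055 and 5265 and 785 and 745 CPM. The central activator areA was not called (-0.24 ± 0.11, adjusted p = 0.0537), and its co-repressor gene nmrA was the higher member (0.73 ± 0.10). Without overexpression replicate 1, 12 genes were called lower.

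Among proline and purine genes 3 were higher and 4 lower. The purine genes carried the large changes, with urate oxidase uaZ (AN9470) at 29.1 and 24.5 CPM against 1077 and 1313 CPM (change -5.47 ± 0.18) and the urate-xanthine permease gene uapA (AN6932) at 6.99 and 3.07 CPM against 372 and 374 CPM (change -6.09 ± 0.21). The proline permease gene prnB (AN1732) was lower (-2.28 ± 0.20) and the pathway enzyme gene prnC higher (1.80 ± 0.11).

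Carbon genes moved in both directions. Of 5 genes of hexose transport and carbon repression 3 were higher and 2 lower. For mstE (AN5860), a glucose transporter gene, the level was 1.91 and 2.62 CPM against 989 and 963 CPM (change -8.80 ± 0.20, adjusted p = 5.31e-14), while the hexose transporter gene hxtA (AN6923) stood at 1473 and 1606 CPM against 26 and 26.8 CPM (change 5.87 ± 0.15). The transporter gene mstC (AN10891) had 2 counts in deletion and a depth-scaled ratio of 38.1 (95% counting interval 10.2 to 321), and mstA differed by 4.19 ± 0.13. The repressor gene creA (AN6195) was slightly lower, at 367 and 333 CPM against 509 and 473 CPM (change -0.49 ± 0.09).

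Of 10 measured glycolysis genes 8 were lower, 1 higher and 1 not called (median -0.44, and -0.29 without deletion replicate 2). Pyruvate decarboxylase pdcA (AN4888), which opens ethanol fermentation, stood at 50.6 and 51.8 CPM against 1337 and 1276 CPM (change -4.67 ± 0.15, adjusted p = 1.29e-12). Pyruvate kinase pkiA (AN5210) was lower (-1.37 ± 0.08), and the glucose-6-phosphate isomerase gene swoM (AN6037) was the one higher member (0.99 ± 0.09). In the ethanol list aldA, alcB (AN3741) and alcR (AN8978) were higher (1.60, 3.39 and 1.99), and alcohol dehydrogenase alcA (AN8979) was lower, at 5.6 and 6.22 CPM against 109 and 135 CPM (change -4.38 ± 0.17).

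Of 13 glyoxylate, gluconeogenesis and acetate genes 6 were higher, 4 lower and 3 not called (median 0.17). Isocitrate lyase acuD (AN5634) stood at 97.3 and 72 CPM against 304 and 322 CPM (change -1.88 ± 0.12, adjusted p = 4.03e-09), and wild type held 317 and 302 CPM, at the level of deletion. The peroxisomal fatty acid oxidation gene foxA (AN7111, mfp in the reference table) and the regulator gene farB (AN1425, farB1 in the reference table) were higher (2.10 ± 0.09 and 1.84 ± 0.09). The regulator genes farA, acuM and acuK were also higher (0.99, 0.76 and 0.43), while the enzyme genes acuJ, idpA and acuG were lower (-1.08, -1.01 and -0.83), and malate synthase acuE was not called. The median of the list was -0.0326 without overexpression replicate 1 and 0.348 without overexpression replicate 2.

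Polysaccharide hydrolase genes were mixed, with 6 of 13 cellulose and xylan genes higher and 6 lower. The beta-glucosidase gene bglL (AN2828) stood at 1160.1 and 1356 CPM against 2.66 and 2.76 CPM (change 8.85 ± 0.17, adjusted p = 1.76e-14), and wild type held 184 and 229 CPM. The xylan genes xlnA (AN3613) and xlnD (AN2359) went in opposite directions (4.64 ± 0.48 and -3.91 ± 0.21) at low levels. The 3 regulator genes of the list, xlnR, clrA and clrB, were higher (1.28, 2.12 and 0.91), and so was the beta-glucosidase gene bglA, at 158 and 172 CPM against 18.4 and 17.4 CPM. The cellulase and xylanase genes cbhA, cbhB, eglA, xlnB and xlnC were lower (from -2.45 to -0.83). Of 7 starch genes 4 were lower, 1 higher and 2 not called, with the alpha-glucosidase gene agdB (AN8953) at 5.22 and 7.03 CPM against 32 and 14.2 CPM (change -1.97 ± 0.31), amyF (AN3388) at -1.65 and agdA (AN2017) at 0.69.

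Stress genes showed no single direction. Of 8 oxidative defence genes 4 were higher and 4 lower. The peroxiredoxin gene prxA (AN8692) stood at 108 and 100.1 CPM against 2222 and 2073 CPM (change -4.37 ± 0.11, adjusted p = 1.25e-13), and the catalase gene catB (AN9339, cat1 in the reference table) at 18.3 and 10.6 CPM against 288 and 335 CPM (change -4.37 ± 0.21). The catalase gene catC (AN5918) was higher (2.72 ± 0.09). Of 5 stress transcription factors 4 were lower, with atfA (AN2911) at -1.45 and msnA (AN1652, sebA in the reference table) at -0.79, and srrA (AN3688) was higher (0.99).

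The chaperone genes hsp104 (AN0858), hsp70 (AN5129) and hsp90 were lower. The disaggregase gene hsp104 stood at 65.2 and 72.2 CPM against 2596 and 2884 CPM (change -5.32 ± 0.25, adjusted p = 7.06e-11), and hsp70 and hsp90 differed by -1.33 and -0.78. The fourth gene of that list, conJ (AN5015), is a conidiation-associated gene rather than a chaperone and was higher (5.56 ± 0.41), with wild type above both strains at 90 and 68.6 CPM. All 4 core histone genes were lower, among them hhfA (AN0734, -1.10), htaA (AN3468, -0.85) and hhtA (AN0733, -0.75). Of the mitotic regulators, nimX and nimA were higher (0.47 and 0.58) and nimE lower (-0.30). Trehalose and mannitol genes split, with mpdA (AN5975) at 1.28, orlA (AN3441) at -0.83 and treB (AN5635) at -0.42.

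In cell wall synthesis the alpha-glucan synthase genes moved in opposite directions. The gene agsB (AN3307, ags1 in the reference table) stood at 11.8 and 4.87 CPM against 338 and 339 CPM (change -5.24 ± 0.24, adjusted p = 7.75e-11), and agsA (AN5885, ags2 in the reference table) at 113 and 112 CPM against 5.44 and 6.51 CPM (change 4.24 ± 0.10). No other of the 9 synthase genes differed by as much as 2-fold, with the chitin synthase gene AN1555 highest among them (0.80). All 4 light receptor genes were higher by modest amounts (cryA 1.35, lreB 0.89, lreA 0.73 and fphA 0.56). Of 5 genes of G protein signalling only ricA (AN1661) was called, at 1.07 ± 0.09, and the other 4 were not.

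Among nutrient-signalling kinases other than AN7572, 4 of 8 genes were higher and 2 lower. The lower count fell to 1 without either deletion replicate and without overexpression replicate 1. The energy-sensing kinase gene snfA (AN7695) stood at 45.5 and 45.2 CPM against 20.2 and 19.5 CPM (change 1.19 ± 0.10). The growth kinase gene torA (AN5982, tor in the reference table) stood at 284 and 292 CPM against 144 and 139 CPM (change 1.02 ± 0.08), and schA and pkaA were higher by 0.86 and 0.91. Neighbours of AN7572 along the chromosome were examined as the genes that flank the altered locus. Of 9 tested neighbours 3 were higher, 4 lower and 2 not called (median -0.14), with AN7571, next to AN7572, at 18.6 and 21.5 CPM against 73.6 and 69 CPM (change -1.85 ± 0.09). AN7567 was lower (-1.73) and AN7577 higher (1.08). Wild type held 19.8 and 19.9 CPM of AN7571, with the overexpression strain.

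Marker loci used in transformation also differed, 4 of 5 being lower. The arginine gene argB (AN4409) stood at 25 and 22.5 CPM against 109.7 and 123 CPM (change -2.29 ± 0.11), the pyridoxine gene pyroA (AN7725) at 30.6 and 35.4 CPM against 117 and 122 CPM (change -1.87 ± 0.10), and wild type held 26.8 and 26.7 CPM and 45.9 and 38.4 CPM. At 17 h argB stood at 45.2 CPM in overexpression and 48.4 CPM in deletion, and pyroA at 244 and 241 CPM. Any part of selection markers in the late difference was not tested. The end-joining gene nkuA (AN7753, akuA in the reference table) was lower at an adjusted p of 0.00598, a call lost without deletion replicate 1 or overexpression replicate 1 (adjusted p = 0.102 and 0.0734).

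At a mean level of 10 CPM or more over the 4 libraries, the genes with the highest fitted changes were dewC, rodA, the sterigmatocystin genes AN7809, AN7810 and AN7812, AN11017 inside that cluster, and AN0567, AN12089, AN6476 and AN12090, which the reference table does not name. AN0567 stood at 39430.3 and 43122 CPM in overexpression against 4.33 and 3.93 CPM in deletion (change 13.28 ± 0.22, adjusted p = 8.93e-15), and wild type held 38261 and 38328 CPM. AN6476 stood at 715 and 1129 CPM, with 3 counts over the deletion libraries and a depth-scaled ratio of 9816 (95% counting interval 3358 to 47599). AN12090 stood at 750.4 and 759 CPM with 3 counts in deletion, a ratio of 8617 (95% counting interval 2948 to 41786), and AN12089, its neighbour by number, at 83.9 and 79.5 CPM with none, at least 934-fold higher.

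The genes with the lowest fitted changes were AN8366, AN0528, AN11584, AN6429, AN5540, AN7915, AN4357 and AN3396, besides AN7900 and AN7895 of the dba cluster. For genes without a count in overexpression the rank rests on the fitted value. AN3396 was fitted at -12.97 but stood at -9.48 at its bound, and AN7899, with 1 count and a change of -12.92, is not among the genes listed. AN8366 stood at 0.0479 and 0.0902 CPM against 4176 and 3850.4 CPM, that is 2 counts against 137963 and a ratio of 64311 (95% counting interval 17803 to 531044), and AN0528 at 0 and 0.18 CPM against 2755 and 2501 CPM. Wild type held 1.22 and 1.4 CPM of AN8366 and 0.87 and 0.728 CPM of AN0528. The genes AN6429, AN5540, AN7915, AN4357 and AN3396 had no count in overexpression and were at least 1864-, 1338-, 1017-, 879- and 713-fold lower. At 17 h AN5540 and AN3396 had counts in both strains, AN5540 at 8.33 and 5.11 CPM in overexpression and 158 and 205 CPM in deletion and AN3396 at 64.5 and 54.3 CPM and 87.2 and 96.4 CPM, so AN3396 counts were absent at 48 h in overexpression and present at 54 h in deletion.

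Some large changes lay side by side along the chromosomes. By at least 2 on the log2 scale, 810 genes were called higher and 1360 lower. The gene order of the reference table held 9095 of the 9670 tested genes. In it, 41 runs of at least 5 consecutive tested genes shared a direction and a change of that size. Of these runs 11 were higher and 30 lower, with 280 genes in all. The longest, with 21 genes on chromosome IV from AN7804 to AN7822, holds most of the sterigmatocystin cluster with genes between its members (median 7.07). It ended at AN7823, whose change was below 2, and stcA lies beyond it, in a separate run of 5 genes from AN7824 to AN7828 found at a minimum change of 1 (median 6.37). Next came lower runs of 14 genes each on chromosome II, AN7874 to AN7888 (median -7.70) and AN7891 to AN7903 (median -11.66). The second of these holds the dba cluster, and the first lies beside it and belongs to no list. Summed, the run from AN7874 to AN7888 took 22.6 CPM in overexpression and 2132 CPM in deletion, and the run from AN7891 to AN7903 took 14.0 and 11939 CPM. Wild type sums, at 16.1 and 81.9 CPM, lay on the side of overexpression. A higher run of 12 genes on chromosome VIII, AN9243 to AN11205, holds the austinol genes (median 7.15).

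Runs outside the lists were mostly lower. They include 9 genes from AN8093 to AN8099 on chromosome II (98.3 against 4221 CPM summed), 5 genes from AN8365 to AN8369 on chromosome V (2.26 against 4258 CPM), 8 genes from AN0534 to AN0519 on chromosome VIII (2.21 against 4169 CPM) and 6 genes from AN3228 to AN3223 on chromosome VI (183 against 3795 CPM). The call of AN0519, the last gene of its run, was lost without deletion replicate 2, without overexpression replicate 1 and at an adjusted p under 0.01. In several runs a single gene gave most of the sum, as AN8366 and AN0528 did. Higher runs outside the lists include 9 genes from AN0029 to AN0019 on chromosome VIII (107 against 4.49 CPM), 8 genes from AN8469 to AN8477 on chromosome V (201 against 1.46 CPM) and 6 genes from AN2606 to AN2611 on chromosome VII (296 against 2.74 CPM). In each of these 3 higher runs the wild type sum, at 64.5, 98.1 and 185 CPM in that order, lay between the strains.

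**Figure D4:**
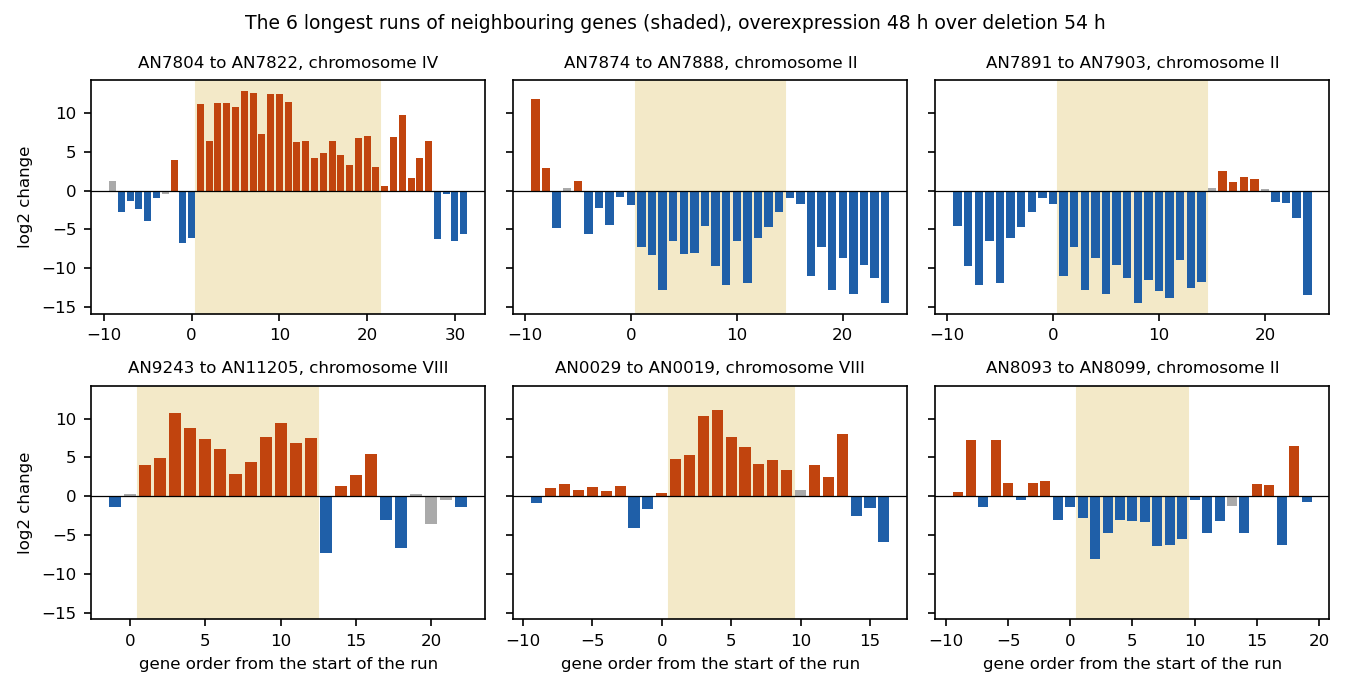
Log2 change of overexpression at 48 h over deletion at 54 h (bars from 0; red called higher, blue called lower, grey not called) for tested genes in chromosomal order around the 6 longest runs, which are shaded. The run with the dba genes, AN7891 to AN7903, and the run AN7874 to AN7888 lie close together on chromosome II with lower genes between them, and the sterigmatocystin run of 21 genes ends beside further higher genes.

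The late difference was then set against the difference between the same strains during growth at 17 h, which rests on other libraries. At 17 h 1505 genes were higher (15.6%) and 1444 lower (14.9%), 30.5% of those tested against 81.5% late, and by at least 2-fold 5.03% were higher and 3.17% lower. Of these 2949 genes, 1689 were called in the same direction late, 841 in the opposite direction and 419 not at all. The difference between the differences was itself called for 3040 genes toward higher (31.4%) and 3424 toward lower (35.4%), 66.8% in all, and by at least 1 on the log2 scale for 14.3% and 23.5%. For AN7572 the late difference was smaller than that at 17 h by 0.33 (adjusted p = 0.0462).

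Several list genes reversed between harvests. Alcohol dehydrogenase alcA (AN8979) stood at 68.3 and 51.4 CPM in overexpression and 3.22 and 2.98 CPM in deletion at 17 h, a change of 4.28 ± 0.20, and at -4.38 late, and the difference of -8.66 ± 0.26 was called (adjusted p = 3.99e-12). The alpha-glucosidase gene agdB (AN8953) stood at 1289 and 1326 CPM against 9.66 and 7.75 CPM at 17 h (change 7.25 ± 0.31) and at -1.97 late. The nitrate transporter gene nrtB (AN0399) went from 2.37 ± 0.13 to -4.43 ± 0.15, and the siderophore transporter gene mirB (AN8540) from 1.07 ± 0.21 to -4.58 ± 0.23. These 4 genes were higher in overexpression during growth and lower after glucose depletion. The reverse held for the emericellamide genes and for ipnA, with easB (AN2547) at -0.88 ± 0.09 at 17 h and 4.87 ± 0.13 late, and ipnA (AN2622) at -1.04 ± 0.17 and 3.45 ± 0.15.

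The proline genes, which lie side by side, differed far more at 17 h than late. During growth proline oxidase prnD (AN1731) stood at 0.793 and 0.77 CPM in overexpression and 871 and 900.3 CPM in deletion (change -10.13 ± 0.25), and prnC (AN1733), for the next enzyme of the pathway, at 7.07 and 5.04 CPM against 614 and 670.3 CPM (change -6.72 ± 0.14). Both were low in overexpression and high in deletion at 17 h. Late the differences were -0.57 ± 0.16 for prnD and 1.80 ± 0.11 for prnC, and the differences between harvests of 9.56 ± 0.30 and 8.53 ± 0.17 were called (adjusted p = 6.41e-12 and 4.22e-13). The conidiation gene fluG (AN4819), needed to start sporulation, likewise stood at 69 and 55.2 CPM against 598 and 711 CPM at 17 h (change -3.40 ± 0.12) and at 78.6 and 88.6 CPM against 44.3 and 47 CPM late (change 0.87 ± 0.11).

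Several cluster lists with large late changes had few genes called at 17 h, where 30.5% of all tested genes were called. Other lists did not, with 5 of 5 emericellamide genes, 4 of 4 ethanol genes, 3 of 5 hexose transport genes and 3 of 6 autolysis genes called. In the sterigmatocystin cluster 3 of 21 genes were called at 17 h, and the difference of the differences was higher for 17. Some of its genes were near the floor at 17 h, so a difference was hardly detectable there. AN7812 had 3 counts in deletion and 2 in overexpression, while stcA had 70 and 96 counts and was not called. Of the 11 dba genes 1 was called at 17 h, and all 11 differences were lower. None of the austinol, terrequinone, monodictyphenone or orsellinic acid genes was called at 17 h, but many of them had few or no counts in either strain then (AN9247 and AN9248 had none), so a difference was not detectable at this depth. By contrast mstE (AN5860) and pdcA (AN4888) were abundant in both strains at 17 h, mstE at 1491 and 1133 CPM and 2188 and 2639.8 CPM and pdcA at 6013 and 4565 CPM and 6482 and 7789.9 CPM, and late they were low in overexpression and wild type but not in deletion. By level, prxA (AN8692) and hsp104 (AN0858) followed that pattern, while niaD (AN1006) was low late in every strain against its 17 h level of 1305 CPM in overexpression and 974 CPM in deletion. At 17 h prxA stood at 2236 and 2358 CPM and hsp104 at 1090.5 and 1059 CPM in that order of strains.

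**Figure D5:**
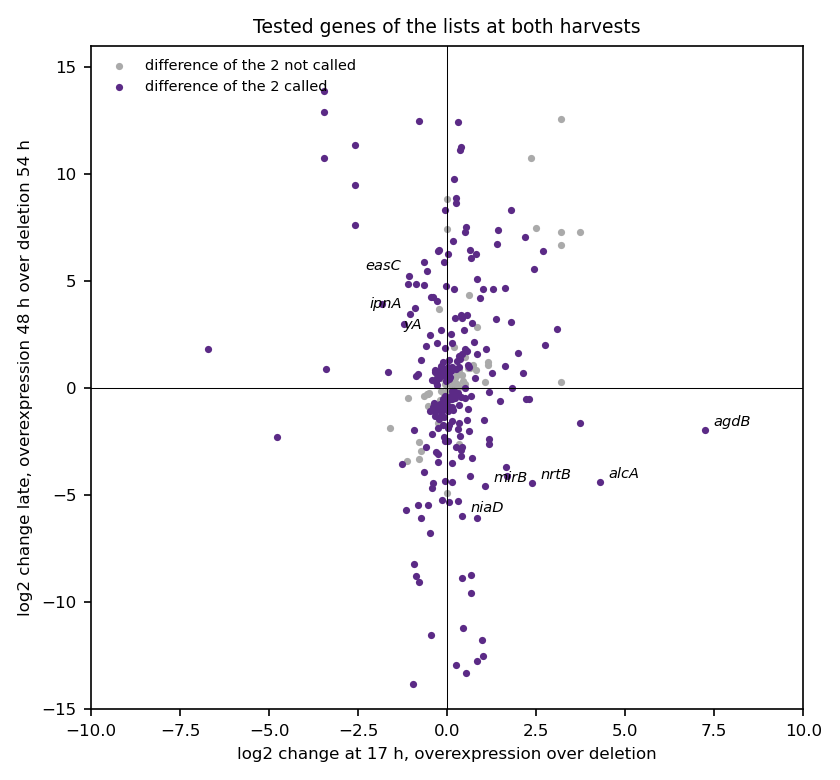
Log2 change of overexpression over deletion at 17 h (x axis) and late (y axis) for the tested list genes. Genes whose difference between harvests was called are in purple and the others in grey. The gene prnD lies beyond the left edge of the x axis and is not drawn. Late changes reach beyond 10 in both directions, most points stay near 0 at 17 h, and agdB, alcA and nrtB stand apart at the lower right, higher at 17 h and lower late (genes without a count in a 17 h group have fitted values that depend on the prior count).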

How the data were processed

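RNA-seq counts of 12 libraries (6 groups of 2 cultures) were used. Per the labels, RNA was poly(A) enriched and libraries were made with a Nextera kit. The deposited table gives the authors' raw read counts per gene. Tools named in the submitters' processing notes are HTSeq, BWA, Trimmomatic, edgeR and limma, with no versions or order. The genome build and the strandedness of counting are not given in the sources used here, so reads of overlapping, antisense and near-identical genes may be shared. A second deposited table, of log2 RPKM per group, was not used. Of 10727 entries, 15 repeated identifiers and 31 upstream open reading frames (0.000199% of counts) were left out, leaving 10681 genes.

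Genes were filtered with filterByExpr (9670 tested, 1011 below) and scaled by TMM, and edgeR 4.0.16 (R 4.3.3) fitted quasi-likelihood models over all 6 groups, with 6 residual and 7.73 prior degrees of freedom and a common biological coefficient of variation of 8.20%. Fits share the spread of all groups. Calls are at an adjusted p under 0.05 (Benjamini-Hochberg over all tested genes). A standard error is the absolute log2 change divided by the square root of F, which edgeR itself does not give. A further contrast tested the late difference minus the 17 h difference. The code was tested on simulated data. CPM are counts per library total of tested genes times its TMM factor, scaled to 1e6. For groups without counts a floor of 3 counts over the group was used, and for 1 to 3 counts a ratio with a 95% exact interval. Both cover counting error only.

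The alternatives tried were 2 scalings (upper quartile, RLE), limma-voom (limma 3.58.1), DESeq2 1.42.0, other filters and thresholds, glmTreat, a replicate block, fits of only the libraries compared, and each library left out. List counts without each late library were added after seeing the data.

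The members and the 40 gene lists were chosen with earlier results of these data known. The genes named are AN7572, the 10 highest and 10 lowest called changes at a mean of at least 10 CPM without overlap, up to 3 called genes of each list with the largest change, creA, acuD, brlA, veA, laeA and 5 cluster genes (mdpG, orsA, ipnA, aflR, stcA), the ends of runs, and 6 genes with wild type outside both strains. Other list members were named after their values were seen. Of the genes, 9967 were matched to RefSeq's table for assembly ASM1142v1, which gives a symbol for 778 and the gene order. Other names, AN7572 as rimO included, come from general knowledge. No sequence is shown.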

Additional observations from a re-analysis of the deposited data

Results flagged for a closer look

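The difference between strains was not the same at the late harvest as at 17 h for many genes, by edgeR's test of the difference of differences (adjusted p under 0.05), with 3040 genes toward higher and 3424 toward lower in overexpression. Among the 302 tested list genes, 39 were called at both harvests in opposite directions with the difference between harvests also called. Of these, 19 went toward higher late and 20 toward lower late. Over all 9670 tested genes, 841 were called in opposite directions, without that further condition. The values that follow are late minus 17 h differences on the log2 scale.

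Toward higher late were the penicillin gene ipnA (AN2622) by 4.49, the emericellamide genes easC (AN2548) by 6.29, easA (AN2545) by 5.76, easB (AN2547) by 5.75, easD (AN2549) by 5.47 and AN2546 by 4.19, the spore laccase gene yA (AN6635) by 2.96, the fatty acid oxidation gene foxA (AN7111) by 2.38 and the light receptor gene lreA (AN3435) by 1.04. The proline genes prnC (AN1733) and prnX (AN1730) moved by 8.53 and 2.44, and the developmental genes fluG (AN4819), medA (AN6230) and mtfA (AN8741) by 4.27, 1.49 and 1.45. Smaller values were those of schA (AN4238) at 1.20, nmrA (AN8168) at 1.07, tpsA (AN5523) at 0.79, the cichorine gene AN6443 at 0.73 and sodB (AN5577, sod2 in the reference table) at 0.59.

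Toward lower late were the dba cluster gene AN7896 at -10.25, the alpha-glucosidase gene agdB (AN8953) at -9.22, alcohol dehydrogenase alcA (AN8979) at -8.66, the ammonium permease gene mepA (AN1181) at -6.93 and the nitrate transporter gene nrtB (AN0399) at -6.80. Nitrate reductase niaD (AN1006) stood at -6.39, the fellutamide gene AN3493 at -5.79, the siderophore transporter gene mirB (AN8540) at -5.65 and the pimaradiene gene AN1596 at -4.75. The regulator genes msnA (AN1652) and creA (AN6195) stood at -1.12 and -0.98. The hydrophobin gene dewE (AN7539) stood at -5.36, crnA (AN1008) at -3.27, amyA (AN2018) at -2.82, amyR (AN2016) at -2.72, xlnC (AN1818) at -2.63 and hapX (AN8251) at -2.60. The values of tpiA (AN6900), AN7570 and AN4566 (chsC on the list, chsA in the reference table) were -0.82, -0.53 and -0.51.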

How the results depend on the processing

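No call of a named gene changed sign under any alternative run. Counts of called genes stayed within 1.5 times of those reported, from 3538 to 4241 higher and 3392 to 4031 lower, except with edgeR's glmTreat test of a change beyond 2-fold, which called 1388 higher and 2039 lower, fewer by its construction. Leaving out each late library in turn gave 3640 to 4069 higher and 3392 to 3781 lower, and leaving out each late or 17 h library of these strains gave 2736 to 3230 higher and 2930 to 3319 lower for the difference between harvests. At a minimum change of 1 on the log2 scale 93 runs were found. No paired design is given by the labels, the deviations of same-numbered cultures correlated at r = -0.0494, and with the replicate number as a block 3907 and 3903 genes were called late and 3001 and 3390 between harvests. Without deletion replicate 2 the median gene shifted by 0.114.

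Medians of lists near zero changed sign, with the cause not tested. Leaving out each late library gave medians from -0.0543 to 0.212 for trehalose and mannitol (-0.0543 without deletion replicate 1, -0.0153 without overexpression replicate 1), from -0.0326 to 0.348 for the glyoxylate list, from -0.0306 to 0.139 for G proteins (each lowest without overexpression replicate 1), and from -0.0906 to 0.0484 for oxidative defence and -0.184 to 0.0148 for neighbours of AN7572 (each highest without deletion replicate 2). Oxidative defence became 0.0278 with upper-quartile scaling, and G proteins -0.00107 with a 5 CPM filter. With the 5 CPM filter fewer cichorine genes were tested and their median was 0.468. Of gene-by-setting comparisons 22 lost their call and 2763 kept it. Low counts limit genes under a few reads a library, and 2 cultures a strain limit all p-values.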

Other observations

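Position along the chromosomes was examined after the values had been seen. Within 50 tested genes of a chromosome end, 320 of 800 genes (40.0%) were lower in overexpression by at least 2-fold and 241 (30.1%) were higher, against 1877 (22.6%) and 1455 (17.5%) of the other 8295 genes. The median log2 change was -0.34 near the ends and 0.04 elsewhere. The chromosomes differed, with 67 lower and 11 higher genes of 100 near the ends of chromosome II, and 22 lower and 49 higher near the ends of chromosome VIII. No test was made of this pattern, and neighbouring genes are not independent.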
